A study of Mus musculus with 12 samples.

Results

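The contactins and the L1 family are cell adhesion molecules of the immunoglobulin superfamily on growing axons. Their 10 genes, Cntn1 to Cntn6, L1cam, Chl1, Nrcam and Nfasc, were taken by symbol out of the 46603 gene identifiers counted in the mouse neocortex, 6 of them contactins and 4 L1 family genes. RNA was sequenced from microdissected neocortex of C57Bl/6J Chd8+/+ and Chd8+/- mice at embryonic day 12.5 (E12.5, both hemispheres) and at postnatal day 5 (P5, 1 hemisphere), with 3 libraries in each of the 4 groups. Chd8+/- mice carry 1 null allele of Chd8, a chromatin remodeller, in every cell, made by β-actinCre deletion of a floxed exon with the Cre then bred out. Chd8+/+ animals are the wildtype controls, and it is not stated whether those sequenced were littermates. The labels name no treatment and no other allele. As the tissue is bulk, fewer cells of a type and less RNA per cell cannot be told apart. The labels do not say that each library is a separate animal, so p-values measure the spread between these libraries.

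Contactins are held in the outer membrane by a lipid anchor and signal through partners in the same membrane, while L1 family proteins span the membrane and tie it to the spectrin skeleton through ankyrin. Both bind each other, matrix proteins and copies of themselves on neighbouring axons, and are known for axon growth, bundling and guidance, for targeting of neurites to partner cells and, later, for the node of Ranvier and the axon initial segment. In the embryonic cortex, Cntn2 (TAG-1) marks the first efferent axons, and L1cam and Nrcam are found on growing tracts.

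The ankyrin-binding motif in the cytoplasmic tail is what the L1 family has and the contactins lack, and the coding stretch that holds it is shown to mark the difference between the families. The 57 coding bases around it, read from GENCODE vM21 transcripts of GRCm38, are given 5′ to 3′ on the coding strand, with the 15 bases of the motif in capitals.
L1cam: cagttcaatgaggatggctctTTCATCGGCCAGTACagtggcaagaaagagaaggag
Chl1: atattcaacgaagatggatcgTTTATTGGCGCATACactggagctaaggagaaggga
Nrcam: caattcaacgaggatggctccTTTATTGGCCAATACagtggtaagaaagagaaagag
Nfasc: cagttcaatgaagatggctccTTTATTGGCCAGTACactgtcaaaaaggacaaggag
These stretches lie in the last coding exon at chrX:73855101-73855157 (minus strand), chr6:103729228-103729284 (plus), chr12:44598465-44598521 (plus) and chr1:132570486-132570542 (minus). L1cam and Nrcam share 49 of the 57 bases, L1cam and Nfasc 48, and Nrcam and Nfasc 46, while Chl1 shares 37 to 41 with the other three. Searched in translation with both residues known at the fourth place of its 5 codons, the motif occurred 1 time in the longest coding sequence of each L1 family gene and 0 times in that of each of the 6 contactins. Coding sequences were between 3063 and 4044 bases.

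The genes occupy 6 chromosomes of GRCm38. Cntn3 (chr6:102162655-102573101, minus), Chl1 (chr6:103510586-103750211, plus), Cntn6 (chr6:104492790-104863406, plus) and Cntn4 (chr6:105677660-106699310, plus) lie in 1 block of 4536.7 kb. Cntn2 (chr1:132509427-132543256, minus) and Nfasc (chr1:132564690-132741797, minus) are neighbours, 21.4 kb apart with 0 annotated genes between them. Cntn1 (chr15:92051165-92341967, plus), Cntn5 (chr9:9660891-10904775, minus), L1cam (chrX:73853778-73896105, minus) and Nrcam (chr12:44328885-44601846, plus) stand alone. Apart from L1cam, which shares 100 exon bases (1.36% of its exon length) with Arhgap4 on the same strand, no member overlapped an exon of another gene. All but Cntn2 and L1cam, 8 of the 10, are among the 10% of genes tested at P5 with the longest genomic span (at least 122 kb).

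The libraries held between 38774591 and 54695236 counts. Chd8 itself, the check of the labels, was at 14.2 to 14.6 RPKM in E12.5 Chd8+/+ libraries and at 10.01 to 10.39 in Chd8+/- libraries, and at 9.03 to 9.38 against 5.90 to 6.13 at P5. Here CPM are counts scaled to library size by TMM, and RPKM are CPM divided by the exon length in kilobases. The neocortical markers were present in every group, with none of the 10 at 0. E12.5 Chd8+/- replicate 2 stood apart: its summed level of 6 thalamic markers was 372 CPM against 192 to 217 in the other E12.5 libraries, that of 8 meningeal markers was 996 against 506 to 702, and that of 10 neocortical markers was 1149.6 against 1344.6 to 1519. Xist, the RNA of the inactive X and a mark of female tissue, was high in 1 library of each group. These were replicate 3 of E12.5 Chd8+/+ and replicate 1 of each of the other groups. L1cam is X-linked, and the part of sex in its level was not tested.

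The first question was how much of each gene the neocortex holds. At E12.5, 4 genes stood above 9 RPKM in every library and the others lay below 7 RPKM. L1cam, the founding member of its family, stood at 20.7, 22.0 and 18.9 RPKM in the Chd8+/+ libraries. Cntn2, the axonal contactin of early-born neurons, stood at 16.998, 18.7 and 17.9 RPKM. Nrcam, a partner of contactins and of neuropilin, stood at 16.7, 19.1 and 18.001 RPKM. The range of Nrcam overlapped those of L1cam and Cntn2, Nrcam and Cntn2 had means of 17.9 both, and L1cam lay above Cntn2 in every Chd8+/+ library. Nfasc, the adhesion molecule of the node and initial segment, followed at 10.7 ± 0.690 RPKM (SD, n = 3), and Chl1, the close homolog of L1, at 3.92 ± 0.723. The other contactins were each below 1 RPKM: Cntn1 at 0.926 ± 0.0806, Cntn5 at 0.789 ± 0.0568, Cntn6 at 0.581 ± 0.0701, Cntn3 at 0.434 ± 0.0178 and Cntn4 at 0.421 ± 0.0642 (SD, n = 3), with the last 2 overlapping. In Chd8+/- libraries L1cam, Cntn2 and Nrcam overlapped in turn, as did the 5 low contactins. By their means Cntn2 and Nrcam changed places there, which they did not without replicate 2, where Cntn3 stood above Cntn6 instead.

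**Figure D1:**
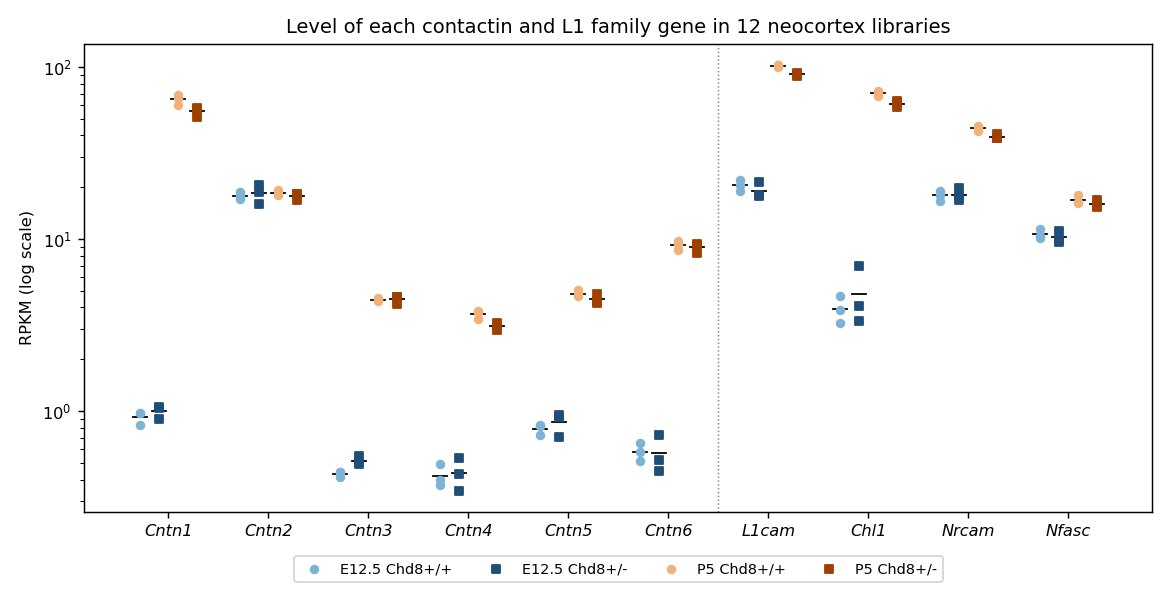
Level of each gene in RPKM on a log axis, with 1 point per library (3 per group) and a bar at each group mean; circles are Chd8+/+ and squares Chd8+/-, blue E12.5 and orange P5. Cntn1 lies below 1.1 RPKM in all E12.5 libraries and above 50 in all P5 libraries, while Cntn2 lies between 15.9 and 20.6 RPKM in every library.

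At P5 the order was another one. L1cam was again highest, at 102, 99.999 and 102 RPKM in the Chd8+/+ libraries. Chl1 came next at 71.1, 72.8 and 68.0 RPKM, overlapping with Cntn1, the contactin of the paranodal junction, at 65.7, 68.9 and 60.2 RPKM. Nrcam stood at 44.1 ± 1.69 RPKM (SD, n = 3). Cntn2 at 18.5 ± 0.620 and Nfasc at 16.9 ± 0.979 overlapped. The lowest were Cntn6 at 9.26 ± 0.529, a contactin that can bind Notch, Cntn5 at 4.81 ± 0.204, Cntn3 at 4.45 ± 0.0867 and Cntn4 at 3.66 ± 0.214 RPKM (SD, n = 3), none of which overlapped with its neighbour in Chd8+/+ libraries. In Chd8+/- libraries the order was the same except that Cntn3 and Cntn5 overlapped, at 4.47 and 4.46 RPKM, and changed places.

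The second comparison was between the stages in Chd8+/+ libraries. Of the 10 genes, 9 rose from E12.5 to P5 and none fell by edgeR's quasi-likelihood test at an adjusted p under 0.05, where 84.0% of all genes tested were called, 41.7% as higher and 42.3% as lower at P5. DESeq2 called the same 9, and 62.5% of the genes that it tested. The median log2 fold change of the members was 2.87, against -0.02 over all 19039 genes tested. The 2 stages were deposited as separate tables, and stage and table cannot be told apart. Cell type markers differed between the stages as well. In Chd8+/+ libraries the sum of progenitor markers was 4247 to 4561 CPM at E12.5 and 289 to 324 at P5. That of postmitotic neuron markers was 3302 to 3893.5 and 9742 to 9987.5 CPM, and that of astrocyte markers 360 to 383 and 1723 to 1788. The part of these cells in the rise of the members was not tested.

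Among the contactins, Cntn1 rose 70.1-fold (log2 fold change 6.13, standard error 0.0908, adjusted p = 6.3e-14). Its counts were 475, 400 and 376 at E12.5 and 33266, 28299 and 25725 at P5 in the Chd8+/+ libraries. No other member moved as far, and the difference is many times the spread between libraries. Cntn6 rose 15.9-fold, Cntn3 10.2-fold, Cntn4 8.74-fold and Cntn5 6.12-fold, with adjusted p-values between 7.35e-13 (Cntn3, edgeR) and 1.88e-11 (Cntn5, edgeR). Cntn2 alone did not change by this test, with a log2 fold change of 0.05 (95% interval -0.06 to 0.15, edgeR adjusted p = 0.357), and its estimate was on the other side of 0 when scaled by library totals (-0.004). It stood at 18.3, 17.9 and 19.1 RPKM at P5.

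In the L1 family all 4 genes rose. Chl1 rose 18.03-fold (log2 fold change 4.17, standard error 0.120), L1cam 4.94-fold, Nrcam 2.46-fold and Nfasc 1.58-fold, with edgeR adjusted p-values of 8.89e-12, 1.17e-11, 7.08e-10 and 4.62e-07. The adjacent genes Cntn2 and Nfasc had log2 fold changes of 0.05 and 0.66. The 4 genes of the chromosome 6 block had log2 fold changes of 3.36 (Cntn3), 4.17 (Chl1), 3.99 (Cntn6) and 3.13 (Cntn4). In the Chd8+/- libraries the same 9 genes rose, with log2 fold changes of 5.81 for Cntn1, 3.69 for Chl1 and 0.66 for Nfasc, and Cntn2 had a value of -0.04 (edgeR adjusted p = 0.669).

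Together, the summed contactin level of a Chd8+/+ library went from 20.1 to 22.0 RPKM at E12.5 to 101 to 109 RPKM at P5, and that of the L1 family from 50.3 to 57.2 to 230.3 to 235. The make-up of each family differed between the stages. Cntn2 held 85.0% ± 0.322 of the summed contactin level at E12.5 and 17.5% ± 1.34 at P5, while Cntn1 held 4.41% ± 0.432 and 61.5% ± 1.63 (SD, n = 3, Chd8+/+). In the L1 family, the share of Chl1 was 7.35% ± 0.871 at E12.5 and 30.3% ± 0.783 at P5, that of Nrcam was 33.8% ± 1.81 and 18.9% ± 0.534, that of Nfasc was 20.1% ± 0.148 and 7.25% ± 0.497, and that of L1cam was 38.7% ± 1.19 and 43.5% ± 0.817. In Chd8+/- libraries the same shares were 84.4% and 18.9% for Cntn2, 4.58% and 58.8% for Cntn1, and 9.20% ± 3.73 and 29.6% for Chl1, whose E12.5 share reached 13.5% in replicate 2. These shares are descriptions, as a share moves when any other member moves.

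**Figure D2:**
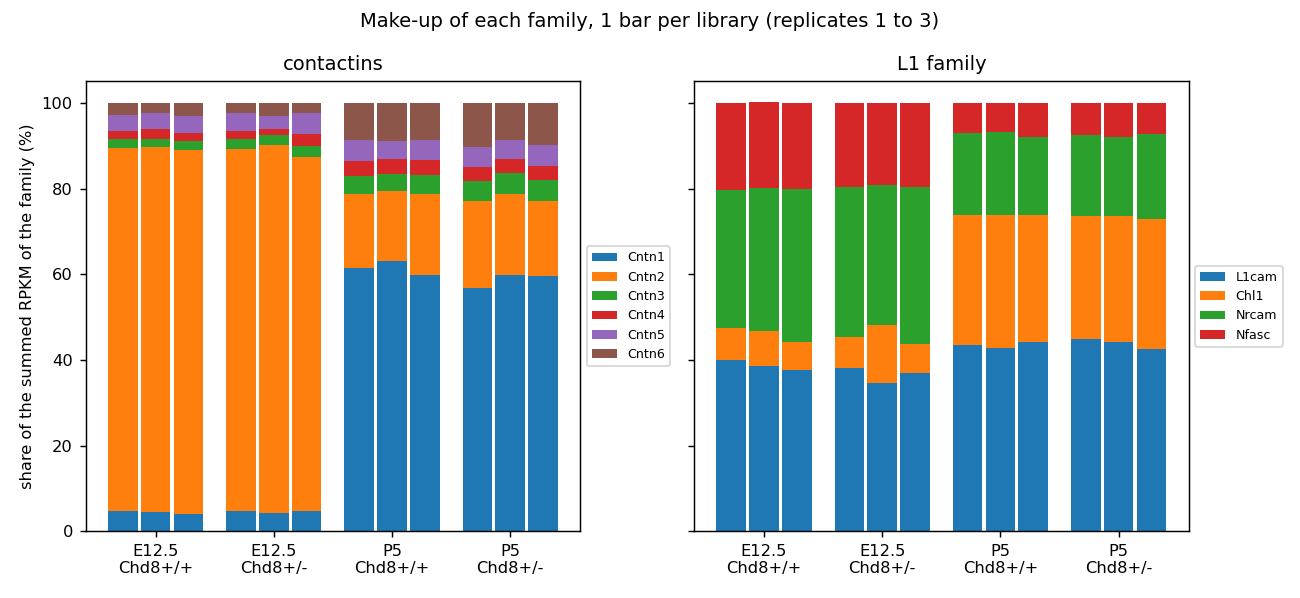
Share of each gene in the summed RPKM of its family (percent), 1 stacked bar per library, for the contactins (left) and the L1 family (right). Cntn2 fills most of the contactin bars at E12.5 (82.6% to 85.9%) and Cntn1 most of them at P5 (56.7% to 63.0%).

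At E12.5 the genotypes were compared to ask whether loss of 1 Chd8 allele altered these genes in the early neocortex. None of the 10 was called by edgeR at an adjusted p under 0.05, none had an unadjusted p under 0.05, and DESeq2 called none; over all genes, edgeR called 0.00553%, DESeq2 0.0373%, and 5.15% had an unadjusted p under 0.05 (edgeR). The median log2 fold change of the members was 0.05, against 0.00 over all genes tested.

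Cntn3 was the 1 member whose genotypes did not overlap, at 0.444, 0.444 and 0.413 RPKM in Chd8+/+ and 0.494, 0.545 and 0.506 in Chd8+/- libraries. Its counts there were 130 to 166, and its log2 fold change was 0.25 (95% interval -0.02 to 0.51, edgeR adjusted p = 0.942). Over all genes, 5.45% had Chd8+/- libraries all above the Chd8+/+ libraries and 5.9% all below. Chl1 had the largest estimate, 0.29 (95% interval -0.25 to 0.83), from 3.84, 4.67 and 3.23 RPKM in Chd8+/+ and 4.09, 6.94 and 3.35 RPKM in Chd8+/- libraries. The high value is that of replicate 2, the library with high thalamic and meningeal markers, and without it the estimate of Chl1 was -0.07. The part of those markers in the value was not tested. With 1 library left out, an unadjusted p under 0.05 was met by L1cam without Chd8+/- replicate 1 and by Chl1 without Chd8+/- replicate 3 (edgeR), and by no other member. Chd8+/- replicate 1 is the library of its group with high Xist.

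In Chd8+/- libraries at E12.5, Cntn1 stood at 0.901 to 1.05 RPKM, Cntn2 at 15.9 to 20.6, Cntn4 at 0.345 to 0.534, Cntn5 at 0.711 to 0.951 and Cntn6 at 0.448 to 0.730. L1cam stood there at 17.8 to 21.5 RPKM, Nrcam at 16.8 to 19.7 and Nfasc at 9.63 to 11.2. Each of these ranges overlapped that of the Chd8+/+ libraries.

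L1cam (log2 fold change -0.10, 95% interval -0.28 to 0.08), Nfasc (-0.06, -0.22 to 0.09), Nrcam (0.01, -0.14 to 0.17) and Cntn2 (0.05, -0.14 to 0.24) had the narrowest intervals of the members at E12.5. Those of Cntn4, Cntn5 and Cntn6, genes with 131 to 221 counts in a library, reached from -0.35 to 0.47, -0.20 to 0.45 and -0.45 to 0.38. The P5 estimates given next for L1cam, Chl1 and Cntn4 lie within their E12.5 intervals, which do not exclude differences of that size at E12.5, while those for Cntn1 and Nrcam lie below theirs. Of the marker lists, the sum of 8 endothelial markers did not overlap between the genotypes at E12.5 (215 to 229 CPM in Chd8+/- and 242 to 248 in Chd8+/+ libraries), nor did that of 8 astrocyte markers (394 to 401 against 360.0 to 383). All 7 endothelial markers that passed edgeR's filter were below 0, 2 of them with an unadjusted p under 0.05. Of the 6 astrocyte markers that passed it, 4 were above 0 and 2 below, none with such a p. The part of either list in the values of the members was not tested.

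At P5, 5 of the 10 genes, Chl1, L1cam, Nrcam, Cntn1 and Cntn4, were lower in every Chd8+/- library than in any Chd8+/+ library. Over all genes tested, 12.2% were lower in this way. The same 5 had an unadjusted p under 0.05 by edgeR, where 9.77% of all genes had one and were lower in Chd8+/- libraries. None passed edgeR's adjusted threshold, which 0.00536% of all genes passed, Chd8 alone. The same 5 were lower at an adjusted p under 0.05 by DESeq2, which called 5.22% of the genes it tested, 3.55% as lower, and also by edgeR when no filter on low counts was applied, a fit that called 995 of 31265 genes. The calls thus depended on the test and the filter, and the differences were small.

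Chl1 stood at 58.6, 61.9 and 63.0 RPKM in the Chd8+/- libraries, against 68.0 to 72.8 in Chd8+/+, a log2 fold change of -0.19 (95% interval -0.28 to -0.10, edgeR unadjusted p = 0.000655 and adjusted p = 0.0973, DESeq2 adjusted p = 0.000783). L1cam stood at 91.3, 92.6 and 88.2 RPKM against 99.999 to 102, a log2 fold change of -0.15 (-0.22 to -0.07, edgeR adjusted p = 0.116, DESeq2 adjusted p = 0.00785). Nrcam stood at 38.5, 38.4 and 40.6 RPKM against 42.2 to 45.2, a log2 fold change of -0.16 (-0.25 to -0.07, edgeR adjusted p = 0.121, DESeq2 adjusted p = 0.0107). The gap between the groups was wider than the range within either for L1cam and narrower than both ranges for Nrcam. Nfasc overlapped, at 15.5, 16.96 and 15.4 RPKM against 16.2 to 18.01, with a log2 fold change of -0.07 (-0.18 to 0.05, edgeR adjusted p = 0.540) that was -0.11 to -0.01 with each library left out.

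Of the contactins, Cntn1 stood at 51.0, 57.8 and 57.3 RPKM against 60.2 to 68.9 (log2 fold change -0.21, 95% interval -0.34 to -0.09, edgeR adjusted p = 0.128, DESeq2 adjusted p = 0.00647). Cntn4, a contactin known from the wiring of visual and olfactory axons, stood at 2.95, 3.14 and 3.24 RPKM against 3.41 to 3.81 (-0.22, -0.35 to -0.09, edgeR adjusted p = 0.125, DESeq2 adjusted p = 0.0402). Chd8+/- replicate 1 was the lowest library for both. Cntn5 (-0.09, -0.23 to 0.04), Cntn2 (-0.04, -0.14 to 0.06), Cntn6 (-0.03, -0.15 to 0.09) and Cntn3 (0.02, -0.09 to 0.14) overlapped between the genotypes, with 4.27 to 4.78 RPKM in Chd8+/- libraries for Cntn5, 16.8 to 18.3 for Cntn2, 8.33 to 9.37 for Cntn6 and 4.20 to 4.601 for Cntn3, and decreases as large as that of Cntn1 lie outside the intervals of the last 3. Within the chromosome 6 block, Chl1 and Cntn4 thus stood lower while the estimates of Cntn3 and Cntn6 were near 0.

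**Figure D3:**
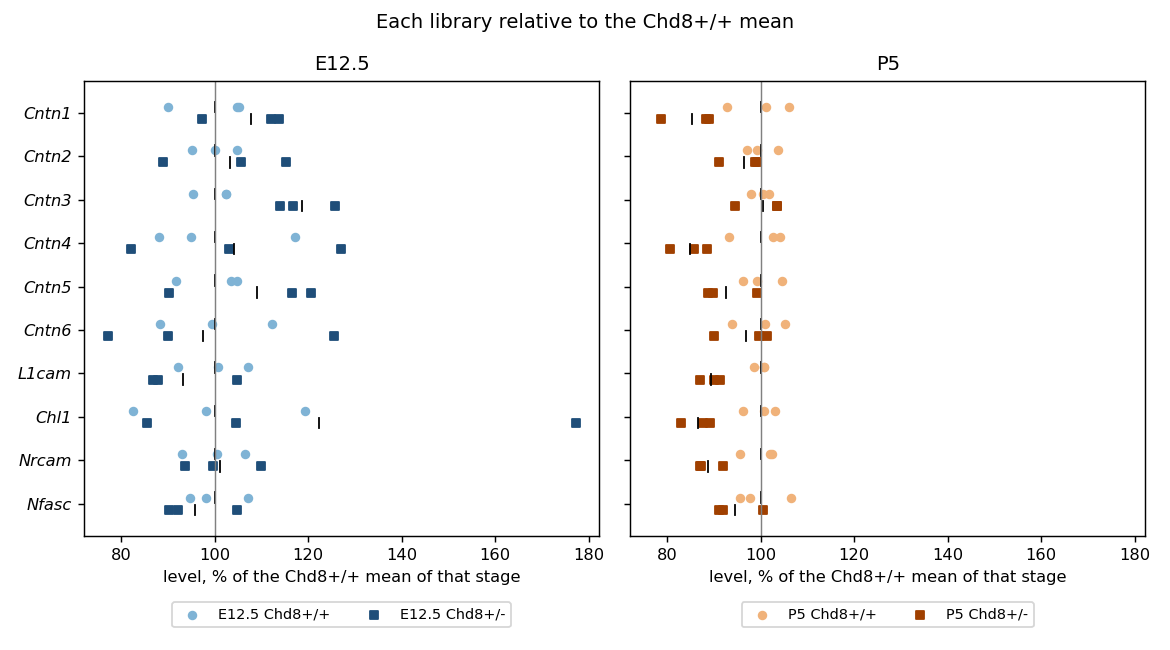
Level of each gene in each library as a percentage of the Chd8+/+ mean of its stage, for E12.5 (left) and P5 (right) on 1 scale; circles are Chd8+/+, squares Chd8+/-, and black ticks are group means (n = 3). At P5 the squares of Cntn1, Cntn4, L1cam, Chl1 and Nrcam all lie to the left of the circles, and at E12.5 the square far to the right is Chl1 in replicate 2 (6.94 RPKM).

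The median log2 fold change of the 10 genes at P5 was -0.12, that of the L1 family -0.15 and that of the contactins -0.07, against 0.00 over all genes tested; 9 of the 10 estimates were below 0, where 49.6% of all genes were. The summed contactin level was 89.97 to 96.4 RPKM in Chd8+/- and 101 to 109 in Chd8+/+ libraries, and that of the L1 family 204 to 209.9 against 230.3 to 235. Of the 1867 genes in the longest 10% by genomic span, 72.8% had estimates below 0, and their median log2 fold change was -0.07. Of these 1867 genes, 27.6% had an unadjusted p under 0.05 and were lower (edgeR), against 9.77% of all genes. Of the 8 members among them 4 had such a p, and L1cam is not a long gene by this measure. The part of gene length in the members' values was not tested beyond the offsets that follow. With an offset for the trend in span the estimates of the 5 genes were -0.12 (Chl1), -0.13 (L1cam), -0.08 (Nrcam), -0.14 (Cntn1) and -0.11 (Cntn4). All but Nrcam kept an unadjusted p under 0.05 in edgeR, and Cntn3 reached one at 0.11. Cntn5 (0.02) and Cntn6 (0.06) were also above 0 with the span offset. The median of the 10 genes was less negative with it, as given in the closing section. With the offset for exon length, Cntn2, Cntn3, Cntn6 and Nfasc were above 0. With an offset for exon length the estimates of the 5 genes were -0.16 (Cntn1), -0.17 (Cntn4), -0.11 (L1cam), -0.13 (Chl1) and -0.12 (Nrcam), all with an unadjusted p under 0.05 in edgeR, while DESeq2 called Cntn1 and Chl1 of them and 401 genes in all, against 651 without the offset. In edgeR all 5 genes kept an unadjusted p under 0.05 without any 1 library. The number of DESeq2 calls depended on single libraries over all genes: 48 genes were called without Chd8+/+ replicate 1, none of them a member, 122 without Chd8+/+ replicate 2 (L1cam and Chl1), 140 without Chd8+/- replicate 1 (L1cam, Chl1 and Nrcam), 314 without Chd8+/- replicate 3 (Cntn1, Chl1 and Nrcam), 563 without Chd8+/+ replicate 3 (all 5 members) and 906 without Chd8+/- replicate 2 (all but Cntn4).

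Marker sums of some other cells did not overlap between the genotypes at P5, and no test was run on the sums. All 8 markers of striatal medium spiny neurons had an unadjusted p under 0.05 and were lower (edgeR), although 0 passed edgeR's adjusted threshold and 6 passed that of DESeq2, and their summed level was 245 to 301 CPM in Chd8+/- and 334 to 366 in Chd8+/+ libraries. That of 8 choroid plexus markers was 329 to 388 against 450.1 to 584 CPM, that of 10 interneuron markers 650.2 to 729 against 751 to 779, and that of 7 Cajal-Retzius markers 359 to 377 against 407 to 413. Single estimates were below 0 for 8 choroid plexus, 9 interneuron and 4 Cajal-Retzius markers. Of these, 6, 3 and 1 had an unadjusted p under 0.05 (edgeR). The other 3 Cajal-Retzius markers lay above 0, so that sum does not stand for its list. The sums for postmitotic neurons (9356 to 9993 against 9742 to 9988 CPM) and neocortex (1288 to 1383 against 1267 to 1367) overlapped, as did those of the remaining lists. No marker of these lists was at 0 in a group. Although their sums overlapped, 5 of 8 endothelial markers were lower with an unadjusted p under 0.05 (edgeR). Of 9 progenitor markers, 4 were lower and 1 higher with such a p. The part of these cells in the levels of the adhesion genes was not tested.

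**Figure D4:**
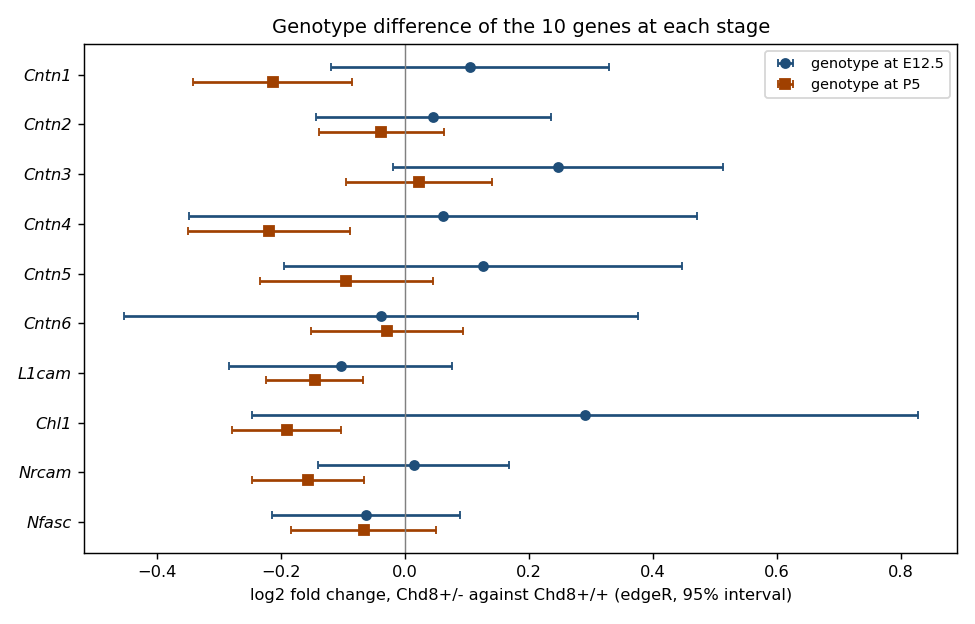
Log2 fold change of each gene between Chd8+/- and Chd8+/+ libraries (edgeR), with its 95% interval, at E12.5 (circles) and P5 (squares); n = 3 per group. The intervals of Cntn1, Cntn4, L1cam, Chl1 and Nrcam at P5 lie below 0, from -0.35 to -0.07, and those of the other 5 genes at P5 and of all 10 at E12.5 include 0.

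A test of the difference between the stages in the effect of genotype asks what the separate comparisons cannot. None of the 10 genes was called by edgeR (0.0% of all genes were), and none of the 7 that DESeq2 tested was called by it (0.0929%; its filter left out Cntn3, Cntn4 and Cntn5), so a difference between the stages was not shown for any member. Cntn1 (-0.34, standard error 0.115, edgeR unadjusted p = 0.0115, adjusted p = 0.405) and Cntn3 (-0.24, standard error 0.0956, unadjusted p = 0.0242, adjusted p = 0.446) had an unadjusted p under 0.05, where 6.87% of all genes had one and were below 0. That count of 2 was 1 to 5 with 1 library left out, with 5 without E12.5 Chd8+/+ replicate 2, 4 without E12.5 Chd8+/- replicate 2 (Cntn1, Cntn4, Cntn5 and Nrcam, no longer Cntn3) and 1 (Cntn1) when either Chd8+/+ replicate 3 of E12.5 or Chd8+/- replicate 1 of P5 was left out. All 10 estimates were below 0, as were 54.2% of all genes, from -0.50 for Chl1 to -0.004 for Cntn6. Without E12.5 Chd8+/- replicate 2 the estimate of Chl1 was -0.12 and that of Cntn6 was 0.23. The comparison takes in the libraries of both genotype comparisons and is not independent of them.

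Partners in the membrane and the matrix were taken from 2 lists of 18 genes each, 36 in all, chosen as known binders or processing enzymes of these proteins. The lists were chosen with earlier results of these data known, so their counts beside the shares over all genes are descriptions. Over the stages, 24 rose and 11 fell in Chd8+/+ libraries (edgeR, adjusted p under 0.05), where 41.7% of all genes were called higher and 42.3% lower, so that a call is the rule for genes in general. Among contactin partners, 15 of 18 rose, led by Tnc and Tnr, the tenascins of the matrix, with log2 fold changes of 4.92 and 4.28, and Cntnap5a, a relative of Caspr, with 4.81. The 2 that fell were Notch1, a receptor that contactins can activate (-2.50), and Cntnap2, the Caspr2 gene (-0.86), whose product binds Cntn2. Among L1 family partners 9 rose and 9 fell. Sptbn4 and Sptbn1, spectrins of the initial segment and membrane skeleton, and Ank2, an ankyrin, rose (4.99, 1.94 and 1.49), while Msn, Rdx and Ezr, the ERM proteins that link L1 to actin, fell (-2.20, -1.83 and -1.66).

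Between genotypes at E12.5, edgeR called 0 of the 36 partners and DESeq2 0 of the 34 that passed its filter, and 1, Tnc, had an unadjusted p under 0.05 (edgeR), where the shares over all genes were 0.00553%, 0.0373% and 5.15%. With 1 library left out that count was 1 or 2, with 2 without Chd8+/+ replicate 1 and without any 1 of the Chd8+/- libraries. Tnc stood at 0.833, 0.725 and 0.710 RPKM in Chd8+/+ and at 1.09, 3.17 and 1.09 RPKM in Chd8+/- libraries (log2 fold change 1.23, edgeR adjusted p = 0.942), with the highest value again in replicate 2 and the other 2 libraries also above all Chd8+/+ libraries. Without replicate 2 the log2 fold change of Tnc was 0.53 (edgeR adjusted p = 0.388), and it was 0.53 to 1.49 with each library left out. The other partners that the rule names, such as Cntnap5a (0.37), Cntnap1 (-0.25), Itgb1 (0.10) and Nrp1 (-0.09), had edgeR adjusted p-values between 0.942 and 0.980. Without Chd8+/- replicate 2 the estimate of Cntnap1 was -0.45 (edgeR unadjusted p = 0.0222) and that of Nrp1 -0.05.

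At P5, edgeR called 0 of the 36 partners, while 20 had an unadjusted p under 0.05 and all 20 were lower, where 9.77% of all genes were; DESeq2 called 10 of the 35 that passed its filter, all lower, where it called 3.55% of its genes lower. The medians were -0.14 for contactin partners and -0.08 for L1 family partners. Cntnap4, a contactin-associated protein of interneuron synapses, had the smallest p of the 36, at 4.62, 4.97 and 4.75 RPKM in Chd8+/- and 6.40, 6.61 and 5.78 in Chd8+/+ libraries (log2 fold change -0.37, edgeR adjusted p = 0.0881, DESeq2 adjusted p = 3.82e-05). Cntnap5b (-0.39, edgeR adjusted p = 0.11, DESeq2 adjusted p = 0.00985) and Tnr (-0.18, edgeR adjusted p = 0.11, DESeq2 adjusted p = 0.0085) also did not overlap between genotypes. In the other list Nrp1, the semaphorin receptor that pairs with L1cam, stood at 11.02 to 13.1 RPKM in Chd8+/- and at 14.3 to 14.7 in Chd8+/+ libraries (-0.28, edgeR adjusted p = 0.0973, DESeq2 adjusted p = 0.00137). Msn (-0.26) and Sptbn1 (-0.14) were called by DESeq2 with adjusted p-values of 0.0174 and 0.0232. Estimates above 0, such as Ncan (0.07), a matrix proteoglycan that binds both families, and Sptbn4 (0.11), had edgeR adjusted p-values of 0.353 and 0.403. That of Sptbn4 was 0.20 (edgeR unadjusted p = 0.00252) without Chd8+/+ replicate 3 and 0.04 without Chd8+/+ replicate 2. In the test of genotype by stage edgeR called 0 of the 36 and DESeq2 0 of the 31 that passed its filter, and 15 had an unadjusted p under 0.05 (edgeR), all below 0, where 6.87% of all genes did. That count was 6 to 14 with 1 library left out, lowest without P5 Chd8+/+ replicate 2.

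The genes closest in pattern to each member, by Pearson's r of log2 CPM over the 12 libraries, mostly shared the difference between the stages, and r is given as a description. Epb41l1, a membrane skeleton protein, was closest to Cntn1 (r = 1.000), Dnm3, a dynamin, to L1cam, Me1 to Cntn3, Snx16 to Cntn4 and Fam20a to Cntn6 (r = 0.999 each), Ehd3 to Cntn5 and Robo2, an axon guidance receptor, to Nrcam (r = 0.999 both), Nefl, a neurofilament, to Chl1 (r = 0.998) and Atp4a to Nfasc (r = 0.994). For Cntn1, 2494 genes had r over 0.99, for Chl1 851 and for Nfasc 3. Cntn2, which did not differ between the stages, had none, and its closest gene, Qrfp at a mean of 0.0529 to 0.0812 RPKM, reached r = 0.815.

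Because Cntn1, L1cam, Chl1 and Nrcam stood lower together at P5, the 120 bases before their RefSeq start sites are shown (GRCm38.p6), 5′ to 3′ on the strand of the gene, with matches to the motifs named below in capitals.
Cntn1: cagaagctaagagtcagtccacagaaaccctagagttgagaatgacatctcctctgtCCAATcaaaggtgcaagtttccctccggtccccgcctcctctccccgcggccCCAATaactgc
L1cam: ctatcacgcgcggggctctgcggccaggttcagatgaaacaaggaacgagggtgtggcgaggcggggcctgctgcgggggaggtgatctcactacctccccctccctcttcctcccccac
Chl1: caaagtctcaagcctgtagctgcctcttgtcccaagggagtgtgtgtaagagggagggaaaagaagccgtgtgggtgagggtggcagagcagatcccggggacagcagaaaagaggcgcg
Nrcam: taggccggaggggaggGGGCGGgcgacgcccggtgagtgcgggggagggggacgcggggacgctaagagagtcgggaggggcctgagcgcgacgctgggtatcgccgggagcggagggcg
They lie at chr15:92051045-92051164 (plus), chrX:73880835-73880954 (minus), chr6:103510756-103510875 (plus) and chr12:44328765-44328884 (plus). The RefSeq start is that of the counted gene for Cntn1 and Nrcam, 290 bases inside it for Chl1 and 15271 bases inside it for L1cam; for Cntn4 and Cntn3 it is 441105 and 108434 bases inside, and they are not shown. In windows of 300 bases, 250 before and 50 after the start, GGGCGG was found for L1cam and Nrcam (in 35.7% of all 32851 RefSeq windows), CCAAT for Cntn1 and L1cam (37.4%), and CAGCTG (16.3%), CACGTG (7.15%) and TATAAA (13.6%) for none of the 4, all on both strands. The Chl1 window held none of these 5 motifs, and the matches of L1cam lie outside the bases shown. CpG counts in the windows were 9 (Cntn1), 22 (L1cam), 13 (Chl1) and 37 (Nrcam), against a median of 7 over all windows.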

How the data were processed

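Neocortical RNA was sequenced as paired-end dUTP libraries, 3 per genotype and stage. The authors trimmed the reads with Trim Galore 0.4.1, aligned them to GRCm38 with TopHat2 2.1.0 and counted them on Ensembl genes with featureCounts 1.5.0; the deposited values are raw counts per gene and run. The P5 counting command sets no strand and the E12.5 command is not given in the sources used here. The 2 runs of a library were summed. The 10 members, the partner lists and the marker lists were chosen with earlier results of these data known. Genotype within stage, stage within Chd8+/+ and genotype by stage were tested over all genes with edgeR 4.0.16 (TMM, filterByExpr, quasi-likelihood, Benjamini-Hochberg, threshold 0.05) in R 4.3.3, with DESeq2 1.42.0 (Wald test, default filter) as an alternative. Intervals are 95% intervals of the same model. The biological coefficient of variation was 9.18% at E12.5 and 7.42% at P5. All 10 members passed edgeR's filter in every comparison. DESeq2's filter gave no adjusted p to Cntn3, Cntn4 and Cntn5 for genotype by stage. The procedure was tested on simulated data, with changes set only in genes with high counts. Those changes were larger than the genotype differences of the members at P5. The simulation therefore does not cover differences of that size or genes with low counts. Levels are RPKM from TMM over all 12 libraries and the deposited exon lengths. Named genes are the 10 members, the 3 partners per list and direction with the smallest p, and the gene closest in pattern to each member over log2 CPM with a prior count of 2. Alternatives were other scalings, no filter, a threshold of 0.1, offsets for exon length or span (loess, span 0.5), all 12 libraries in 1 fit, a replicate block, and omission of each library in turn. Promoters and transcripts come from RefSeq (GRCm38.p6) and GENCODE vM21, with all 10 members matched.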

Additional observations from a re-analysis of the deposited data

How the results depend on the processing

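Counts of members called stayed at 0 at E12.5 and for genotype by stage and at 9 for the stages under every alternative run. At P5 the edgeR count of 0 became 5 without a filter on low counts and 5 with DESeq2 (Cntn1, Cntn4, L1cam, Chl1 and Nrcam), and 1 (Chl1) at a threshold of 0.1; the cause of the difference between edgeR and DESeq2 was not tested. The DESeq2 count of 5 became 2 with the offset for exon length and 0 to 5 when libraries were left out in turn, 0 being the count without Chd8+/+ replicate 1; over all genes these fits called 48 to 906, with 48 in that fit, against 651 with all libraries. Called partners at P5 numbered 13 without a filter, 10 with DESeq2, 2 at a threshold of 0.1 and 0 to 4 with each library left out (4 without Chd8+/- replicate 2), and without a filter 1 was called at E12.5 and 1 for genotype by stage. Over all genes, 995 of 31265 were called at P5 without a filter and 651 of 12467 with DESeq2. Without a filter, 13 of 29365 were called at E12.5 and 17 of 32739 for genotype by stage. No share over all genes is given for the threshold of 0.1 or for edgeR with a library left out. Those counts cannot be weighed against all genes. The median log2 fold change of the members at P5 was -0.0564 with the offset for span, and that of the stages was 2.61 in Chd8+/- libraries and 2.77 to 2.95 with each library left out.

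None of the estimates that changed sign was called under the setting that turned it; the Chl1 estimate at E12.5, 0.29, turned without Chd8+/- replicate 2. At E12.5 Nrcam was -0.000481 with the offset for span. At P5 the offset for exon length gave 0.013 for Cntn2, 0.00144 for Cntn6 and 0.00679 for Nfasc, and that for span 0.0187 for Cntn5 and 0.0551 for Cntn6. For the stages, Cntn2 was -0.00366 by library totals and -0.0392 in Chd8+/- libraries. For genotype by stage, library totals gave 0.0195 for Cntn6 and 0.00507 for Nfasc. With each library left out, ranges were -0.0373 to 0.142 (Cntn2), -0.113 to 0.214 (Cntn4), -0.263 to 0.108 (Cntn6), -0.0734 to 0.493 (Chl1) and -0.0487 to 0.0685 (Nrcam) at E12.5, -0.0597 to 0.00963 (Cntn2) and -0.0651 to 0.0236 (Cntn6) at P5, -0.009 to 0.0875 (Cntn2) for the stages, and -0.132 to 0.232 (Cntn6), -0.101 to 0.0551 (L1cam) and -0.0654 to 0.0718 (Nfasc) for genotype by stage.

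Replicate numbers are shared by the groups, but same-numbered libraries deviated together with r of -0.227, -0.102 and -0.0913 at E12.5 and 0.227, 0.111 and 0.0434 at P5, so the numbers were not taken as pairs. With the replicate block, 0 members were called between genotypes at either stage and 0 for genotype by stage, 9 were called between the stages, all genes called numbered 0 at E12.5 and 4 at P5, and Cntn6 was 0.0109 for genotype by stage. Without division by exon length, 34 of 40 mean family shares moved by more than 1 SD. Among them, in Chd8+/+ libraries, Chl1 (39.7%) passed L1cam (34.1%) at P5, the share of Cntn1 at P5 was 66.0% and that of Nfasc at E12.5 31.1%. The lowest counts of the members were those of Cntn3, Cntn4, Cntn5 and Cntn6 at E12.5, with 130 to 221 per library.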
